A study of Mus musculus with 2 samples.

Results

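The genes of de novo fatty acid synthesis were followed through single nuclei of mouse brown adipose tissue. They were chosen by symbol: Acly, Acaca, Acacb, Fasn, Scd1, Elovl3, Elovl6 and Thrsp, 8 of the 22620 genes counted, and each symbol matched 1 gene. The tissue came from mice of 4 weeks of age in a pair of genotypes, Nfe2l1(f)-KO, called KO here, and Flox, with 1 droplet RNA library each. Nfe2l1 encodes NFE2L1 (NRF1), a transcription factor of the endoplasmic reticulum membrane that is known to raise proteasome genes. By its name Flox carries the Nfe2l1 allele flanked by recombination sites. The Cre line that deleted it in KO, the part deleted, any Cre in Flox and the number of mice per library were not given in the sources used here. With 1 library per genotype no difference between genotypes has a replicate check and none was tested. A level is in CPM, which is UMIs of the gene per 1000000 UMIs summed over the nuclei in question. Each interval in parentheses is an exact 95% interval that covers counting error only, of UMIs, or of nuclei for a share of nuclei. Nuclei of 1 library are not replicates of a genotype.

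De novo fatty acid synthesis turns citrate that leaves the mitochondria into long-chain fatty acids. ATP citrate lyase (Acly) cleaves citrate to acetyl-CoA, the acetyl-CoA carboxylases (Acaca in the cytosol, Acacb at the mitochondrial surface) make malonyl-CoA, and fatty acid synthase (Fasn) builds palmitate from both with NADPH. Elovl6 lengthens palmitate, stearoyl-CoA desaturase (Scd1) sets the first double bond, Elovl3 makes very long chains and is known as a cold-induced gene of brown fat, and Thrsp (Spot 14) is a thyroid hormone-responsive protein that promotes lipogenesis. In brown fat the malonyl-CoA made by Acacb also holds back the entry of fatty acids into mitochondria. Insulin, through SREBP-1c (Srebf1), and glucose, through ChREBP (Mlxipl), are the known inducers of most of these genes.

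Filters left 11556 nuclei of KO, at a median of 2642 UMIs, and 13973 of Flox, at a median of 2253. Median mitochondrial shares were 1.12% in KO and 0.420% in Flox. There were 50 barcodes that occurred among the kept nuclei of both libraries. Clustering without the 8 genes gave 8204 KO and 8835 Flox adipocyte-like nuclei, in which all 20 adipocyte markers had UMIs. Ucp1, the defining uncoupling protein of brown fat, was low in adipocyte-like nuclei outside the Slc7a10/Trhde cluster described below, with 32.4 CPM in KO and 35.8 in Flox, whereas the brown fat gene Cidea had 1393 and 1285 CPM. Nfe2l1 went against the label: in adipocyte-like nuclei it had 312 CPM (306 to 319) under the label KO and 131 CPM (127 to 135) under the label Flox. The log2 ratio of label KO over label Flox was 1.25 there, and 1.47 (0.61 to 2.49) in T/NK-like nuclei on 57 UMIs. It was 0.10 (-0.18 to 0.38) in fibroblast/progenitor-like and 0.25 (-0.01 to 0.51) in endothelial-like nuclei. In pericyte/smooth muscle-like, macrophage/monocyte-like and skeletal muscle-like nuclei the interval also included no difference. Every difference called KO over Flox below is therefore one between the library labelled KO and the library labelled Flox.

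Acly, Acaca and Fasn lie on chromosome 11 in mm10, as does Nfe2l1, at 3.65, 12.4 and 24.0 Mb from it. Acly spans chr11:100476353-100528000 on the minus strand, Acaca chr11:84129672-84401651 on the plus strand and Fasn chr11:120805846-120824547 on the minus strand. Acacb lies on chromosome 5, Elovl6 on chromosome 3, Thrsp on chromosome 7, and Scd1 and Elovl3 both on chromosome 19. Acaca overlaps Gm11437 and Elovl3 overlaps Pitx3, each on the opposite strand, and the use of strand in counting was not given in the sources used here. RefSeq promoters of 300 bases (250 before and 50 after the start, GRCm38.p6) were held for 6 of the 8 genes, all but Scd1 and Elovl3. They were searched on both strands for the letters of 5 motifs: the E-box (CACGTG), a sterol response element (TCACNCCAC), the NF-Y box (CCAAT), the GC box (GGGCGG) and the core of the antioxidant response element (TGACNNNGC). Fasn held the NF-Y box 3 times, with overlap of 2 of the matches, Thrsp held it 2 times in separate places, and Acly and Acacb 1 time each, while Acly also held 4 GC boxes. Among 32851 promoters of that length 37.4% held the NF-Y box and 35.7% the GC box. The other 3 motifs, held by 7.15% (E-box), 1.24% (sterol response element) and 12.4% (antioxidant response element) of all promoters, had no match in the 6. Acaca and Elovl6 matched none. The windows of Acaca (chr11:84195188-84195487) and Acacb (chr5:114165268-114165567) lie inside these genes, away from the start of the gene span. For Acacb that span is chr5:114146535-114250761 on the plus strand. Other starts of these genes were not searched. Fasn, Acly, Thrsp and Acaca were high in 1 adipocyte-like cluster in both libraries, as was Scd1. The order of Elovl6 between clusters differed between the libraries. The Acaca window, without a match, is not shown, and whether motifs go with the level was not tested. The promoters of Fasn, Acly and Thrsp are shown for their level in that cluster, and that of Elovl6 for its order. They lie at chr11:120824498-120824797 (Fasn, minus strand), chr11:100527951-100528250 (Acly, minus), chr7:97417501-97417800 (Thrsp, minus) and chr3:129532136-129532435 (Elovl6, plus), and capitals mark the motif matches, 5′ to 3′.
Fasn: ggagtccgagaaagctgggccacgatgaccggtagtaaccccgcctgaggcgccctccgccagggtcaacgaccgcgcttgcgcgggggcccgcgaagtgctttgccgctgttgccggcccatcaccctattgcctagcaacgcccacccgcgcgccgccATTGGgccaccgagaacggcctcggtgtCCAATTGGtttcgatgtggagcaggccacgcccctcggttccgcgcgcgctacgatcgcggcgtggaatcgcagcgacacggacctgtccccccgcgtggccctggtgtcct
Acly: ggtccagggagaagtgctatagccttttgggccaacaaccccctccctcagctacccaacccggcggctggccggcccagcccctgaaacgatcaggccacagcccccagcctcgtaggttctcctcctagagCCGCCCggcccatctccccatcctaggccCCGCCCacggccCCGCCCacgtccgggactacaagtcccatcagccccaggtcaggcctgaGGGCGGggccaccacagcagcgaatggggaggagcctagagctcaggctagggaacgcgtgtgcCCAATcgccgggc
Thrsp: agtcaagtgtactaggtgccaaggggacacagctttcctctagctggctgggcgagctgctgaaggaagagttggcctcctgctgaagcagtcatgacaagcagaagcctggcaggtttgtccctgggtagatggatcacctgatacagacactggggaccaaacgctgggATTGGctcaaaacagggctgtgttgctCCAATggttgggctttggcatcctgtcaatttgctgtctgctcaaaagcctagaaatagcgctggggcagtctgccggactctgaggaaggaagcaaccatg
Elovl6: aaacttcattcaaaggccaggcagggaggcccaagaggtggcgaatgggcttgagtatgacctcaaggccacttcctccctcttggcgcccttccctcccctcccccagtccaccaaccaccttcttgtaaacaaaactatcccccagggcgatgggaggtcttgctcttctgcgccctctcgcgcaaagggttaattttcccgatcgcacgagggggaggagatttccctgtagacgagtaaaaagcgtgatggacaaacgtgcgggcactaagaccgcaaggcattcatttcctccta
A match describes letters in the window and no binding was measured.

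Across the tissue, 7 of the 8 genes were measured well in adipocyte-like nuclei and Elovl3 was not. Adipocyte-like nuclei held the highest level of Acly, Acaca, Acacb, Fasn, Elovl6 and Thrsp among the 8 classes plotted, in both libraries. Acacb stood at 3596 CPM (3574 to 3617) in KO and 3375 CPM (3354 to 3397) in Flox, and Acaca at 1163 and 1193 CPM. After each nucleus was thinned to 1000 UMIs, which left out 500 KO and 100 Flox adipocyte-like nuclei, 95.9% of KO and 94.7% of Flox nuclei still had an Acacb UMI. Fasn and Scd1 were detected in few: 6.01% and 5.38% of thinned nuclei had a Fasn UMI and 1.91% and 1.80% a Scd1 UMI. Elovl3 had 11 UMIs in KO (0.377 CPM, 0.188 to 0.674) and 21 in Flox (0.751 CPM, 0.465 to 1.15) over all adipocyte-like nuclei. That is too few for a ratio, which was set only from 50 UMIs over both libraries. Levels of different genes are not ranked against each other, since counts from nuclear RNA also depend on gene length.

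**Figure D1:**
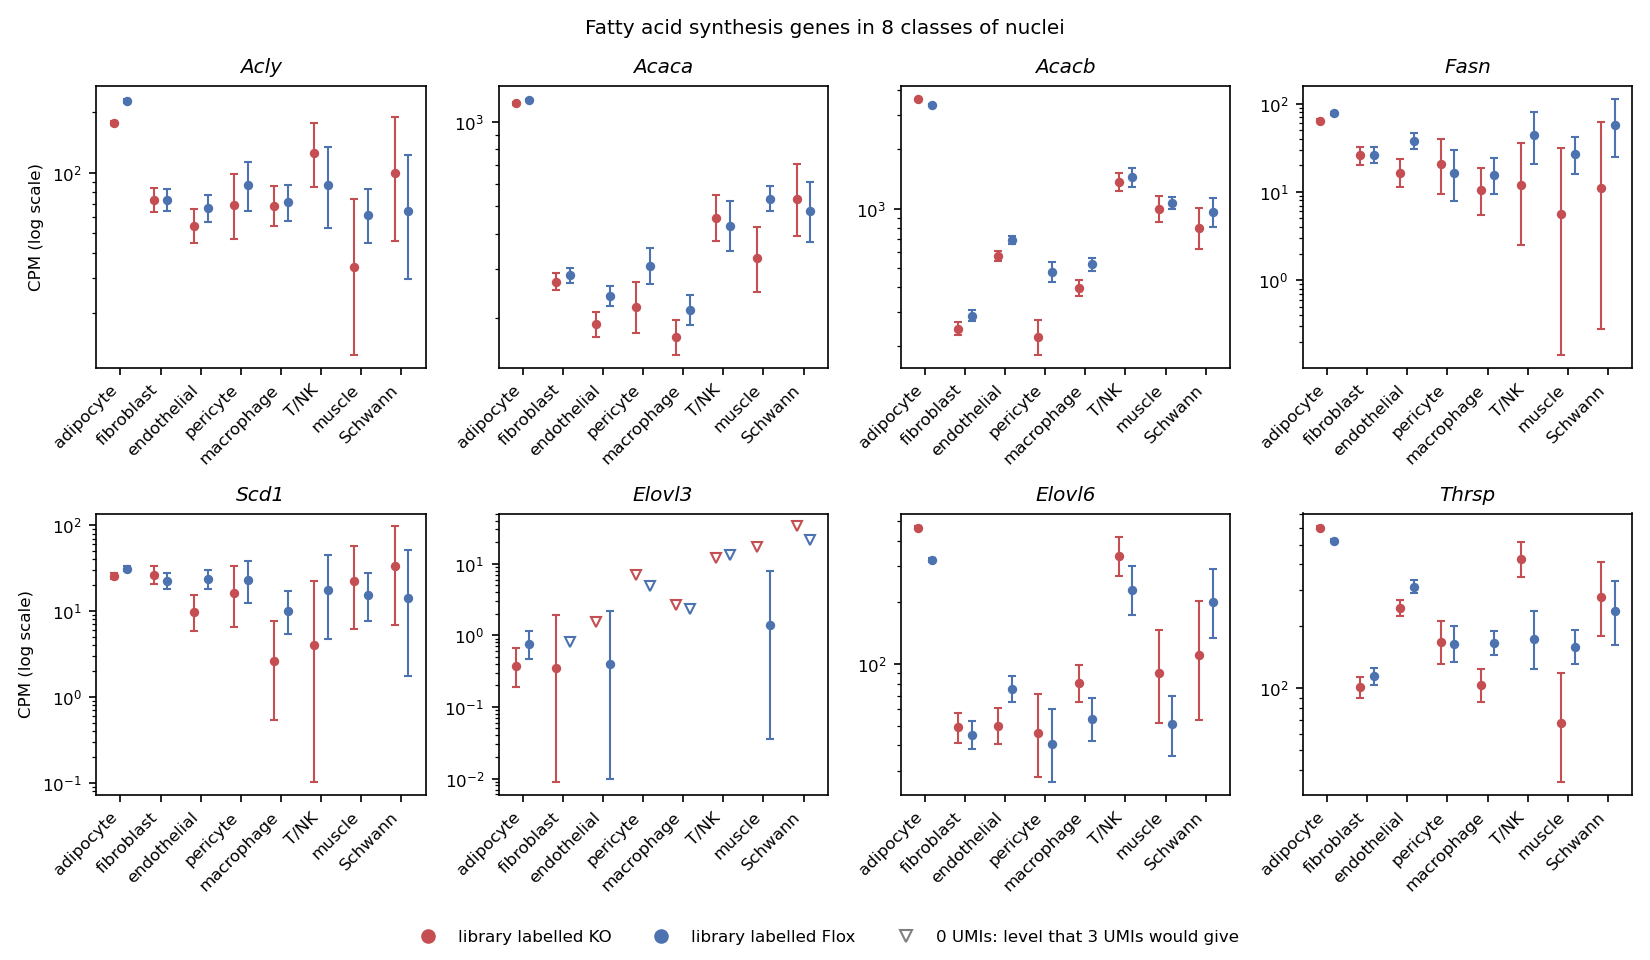
Level of each gene (CPM, log scale) in 8 classes of nuclei, with the library labelled KO left of the library labelled Flox in each class, exact 95% counting intervals as bars and open triangles where a library had 0 UMIs. Acacb stood at 3596 CPM in KO and 3375 CPM in Flox adipocyte-like nuclei and lower in all other classes, whereas Scd1 had 26.6 and 22.7 CPM in fibroblast/progenitor-like nuclei, close to its adipocyte-like level.

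Part of the signal in other classes lay at the height of the adipocyte markers there. In fibroblast/progenitor-like nuclei the 20 adipocyte markers had a median of 12.0% of their adipocyte-like level in KO and 15.4% in Flox. Acacb was below that, at 6.86% and 8.51%, and Elovl6 at 10.6% and 13.9%. The markers' median serves here only as a comparison, and how much of any level was stray adipocyte RNA was not tested. Acly lay above that median, at 41.5% and 32.2%, as did Fasn, at 40.5% and 33.7%. Single markers ranged from 6.25% to 111% in KO and from 7.35% to 111% in Flox, so the levels above the median still lay within the spread of the markers. Scd1 reached 103% and 72.3% of its adipocyte-like level, with 26.6 CPM (76 UMIs) in KO and 22.7 CPM (83 UMIs) in Flox. In thinned fibroblast/progenitor-like nuclei 2.54% (1.70 to 3.62) of KO and 2.26% (1.57 to 3.14) of Flox nuclei had a Scd1 UMI, against 0.986% (0.774 to 1.24) and 0.804% (0.624 to 1.02) of adipocyte-like nuclei outside the Slc7a10/Trhde cluster. Fibroblast/progenitor-like nuclei were the shallower ones before thinning, with medians of 1738 and 1490 UMIs against 3084 and 2763. In endothelial-like nuclei Thrsp stood at 40.7% and 59.8% of its adipocyte-like level, where the markers had a median of 18.4% (0% to 317%) in KO and 26.3% (5.04% to 343%) in Flox, and it was detected in 18.7% and 21.9% of thinned nuclei.

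The 8204 KO and 8835 Flox adipocyte-like nuclei fell into 4 clusters, each called by genes that led it over all other nuclei. The Kcnd2/Erbb4 cluster held 4418 KO and 4106 Flox nuclei, the Aspg/Ybx2 cluster 2716 and 2008, the Gbp cluster (interferon-induced guanylate-binding proteins) 750 and 2292, and the Slc7a10/Trhde cluster 320 and 429. In the last, Trhde, Clmp, Slc7a10 (an amino acid transporter known from the surface of white adipocytes) and Retn (resistin, a hormone of white fat) led over the other adipocyte-like nuclei. Its Ucp1 level was 8.11 CPM in KO and 16.6 CPM in Flox, and its Cidea level 275 and 340 CPM. The genes of fatty acid synthesis took no part in setting the clusters, yet genes that vary with them did, so the contrast of a cluster with the rest is a description without a test. Against the other adipocyte clusters, skeletal muscle genes such as Myh4 and Acta1 led the Aspg/Ybx2 cluster, and their part in any result was not tested.

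The Slc7a10/Trhde cluster carried most of the Scd1 and much of the Fasn RNA of all adipocyte-like nuclei. It held 62.9% (59.3 to 66.4) of the Scd1 UMIs in KO and 75% (72 to 77.8) in Flox, and 31.9% and 59.4% of the Fasn UMIs. Of Acaca UMIs it held 19.2% and 33.2%, and of Acly UMIs 9.13% and 24.6%. Its share of all UMIs was only 4.22% in KO and 4.74% in Flox, and its share of adipocyte-like nuclei 3.90% and 4.86%. Among the 7 measured genes, 5 were at least 1.5-fold higher in this cluster than in the other adipocyte-like nuclei in both libraries, and none was at least 1.5-fold lower in both. Over all 11116 genes with 50 UMIs in each library, 9.82% were that much higher and 13.3% that much lower in both.

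Taken in the order of the pathway, Acly, which supplies cytosolic acetyl-CoA, had 383 CPM in the cluster and 168 in the other adipocyte-like nuclei in KO, a ratio of 2.28 (2.07 to 2.51). In Flox it had 1185 and 180 CPM, a ratio of 6.57 (6.20 to 6.96). The carboxylases parted: Acaca was high in the cluster and Acacb was not. Acaca had 5296 and 981 CPM in KO, a ratio of 5.40 (5.25 to 5.55), and 8360 and 837 CPM in Flox, a ratio of 9.99 (9.76 to 10.2). Acacb had 2470 and 3645 CPM in KO, a ratio of 0.677, and 2159 and 3436 CPM in Flox, a ratio of 0.628. Both libraries thus had less Acacb and more Acaca in the cluster than outside it. Fasn had 484 and 45.4 CPM in KO, a ratio of 10.6, and 973 and 33.1 CPM in Flox, a ratio of 29.4. Scd1, the desaturase, had 384 and 9.98 CPM in KO, a ratio of 38.5, and 496 and 8.22 CPM in Flox, a ratio of 60.3. These were the widest gaps among the 7 genes. Thrsp had 1139 and 581 CPM in KO, a ratio of 1.96, and 1370 and 479 CPM in Flox, a ratio of 2.86.

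Elovl6 was the gene whose order differed between libraries. In KO it had 234 CPM in the cluster and 473 CPM in the other adipocyte-like nuclei, a ratio of 0.496 (0.440 to 0.557). In Flox it had 486 and 315 CPM, a ratio of 1.54 (1.42 to 1.67). Elovl3 had 0 UMIs in the cluster in KO, where 3 UMIs would be 2.43 CPM, and 3 UMIs in Flox. Because fewer nuclei with high levels and less RNA in each nucleus give the same sum, the spread over nuclei was read as well.

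**Figure D2:**
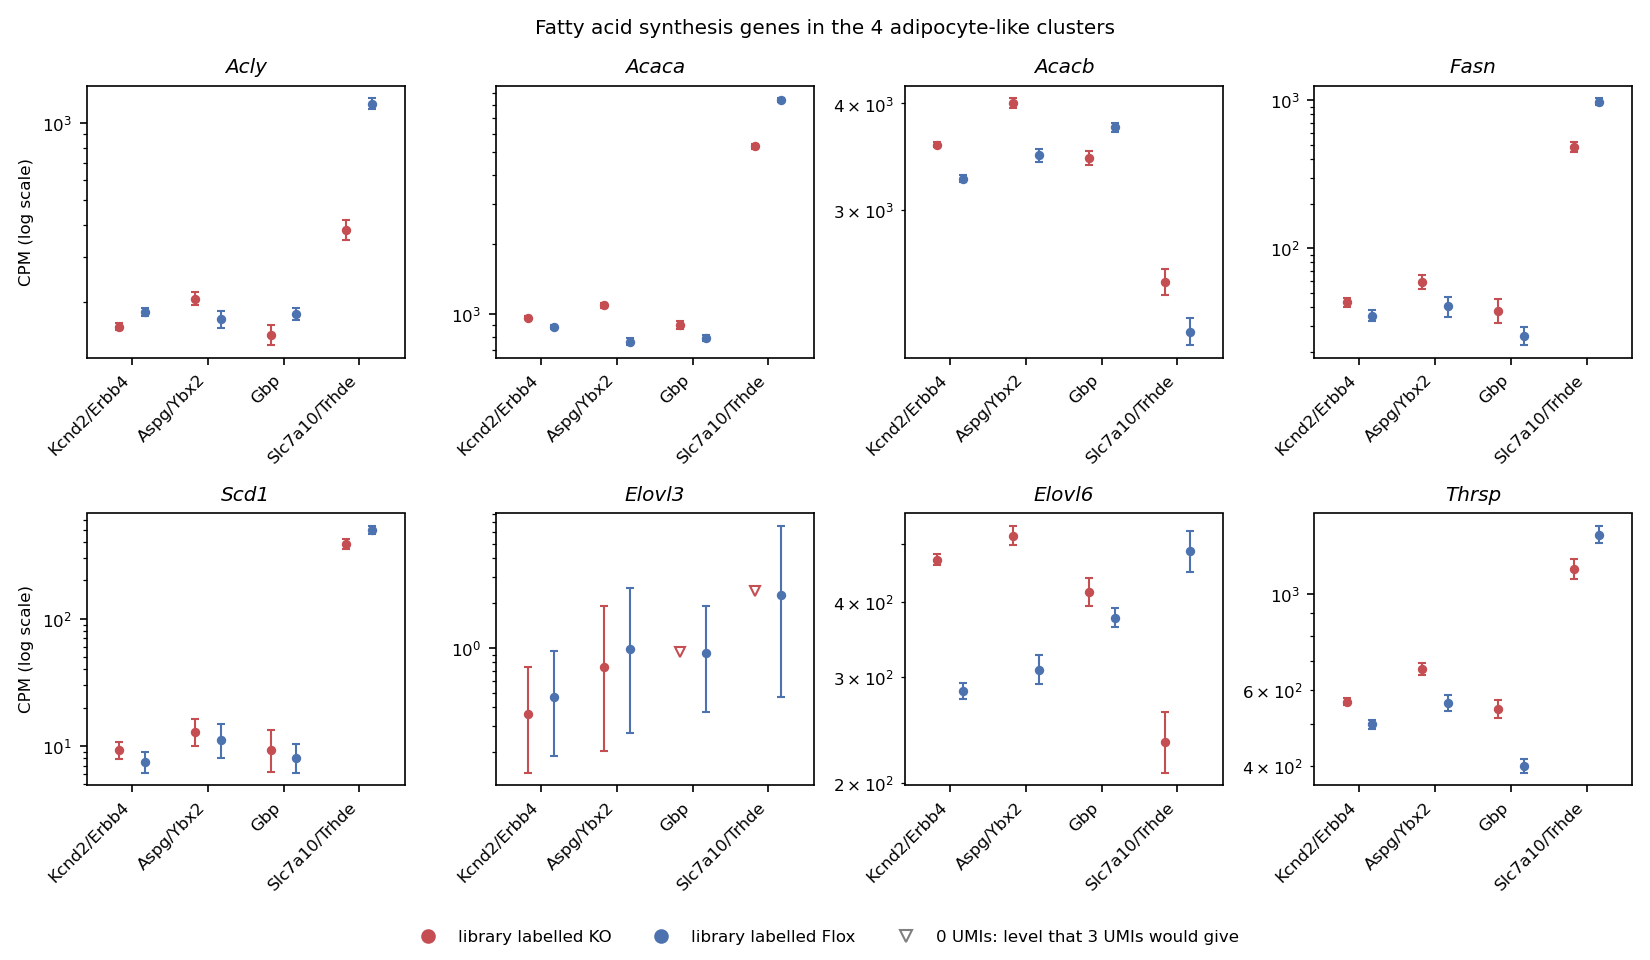
Level of each gene (CPM, log scale) in the 4 adipocyte-like clusters, with the library labelled KO left of the library labelled Flox, exact 95% counting intervals as bars and an open triangle where a library had 0 UMIs. Acly, Acaca, Fasn, Scd1 and Thrsp stand highest in the Slc7a10/Trhde cluster in both libraries, with Fasn at 484 CPM in KO and 973 CPM in Flox, and Acacb stands lowest there.

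Within the cluster the genes were spread over many nuclei, and unevenly. At 1000 UMIs per nucleus, 304 KO and 406 Flox nuclei of the cluster remained. Acly, Acaca, Fasn and Scd1 together had a median of 5 UMIs (lowest 0, quartiles 3 and 8.25, highest 37) in KO and 10 UMIs (lowest 0, quartiles 5 and 17, highest 43) in Flox. The medians of the other 3 clusters were 1 in both libraries, so the distributions of the cluster lay higher in both, and that of Flox highest. Most of this sum was Acaca, with means of 5.07 UMIs in KO and 8.67 in Flox, beside 6.31 and 11.3 for the 4 genes together. Acaca alone had medians of 4 and 7 UMIs in the cluster, and Acly, Fasn and Scd1 each had a median of 0 in both libraries. Of the thinned KO nuclei 27.0% (22.1 to 32.3) had an Acly UMI, against 48.0% (43.1 to 53.0) of the Flox nuclei. Fasn was detected in 28.9% (23.9 to 34.4) and 44.3% (39.4 to 49.3), and Elovl6 in 12.2% (8.72 to 16.4) and 24.9% (20.7 to 29.4). Scd1 was detected in 17.8% (13.6 to 22.5) and 19.5% (15.7 to 23.7), intervals that overlap. These shares count nuclei of 1 library each, so neither overlap nor separation of their intervals is a test between genotypes. No single nucleus carried a gene: the highest unthinned count in 1 nucleus was 25 of 472 Acly UMIs in KO and 54 of 1570 in Flox, and 48 of 289 Elovl6 UMIs in KO and 49 of 644 in Flox.

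**Figure D3:**
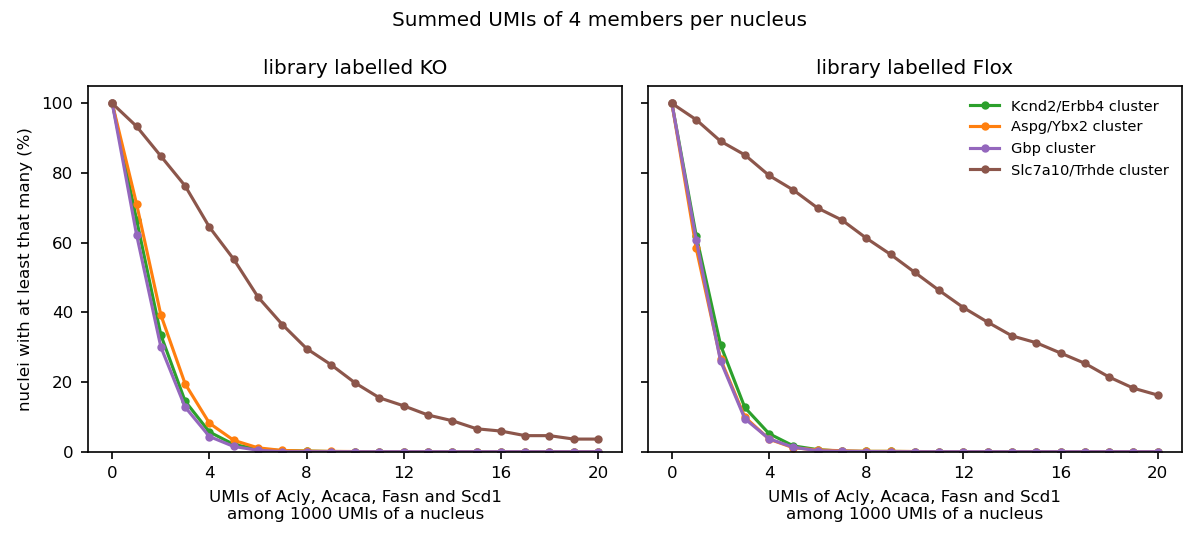
Share of nuclei (%) with at least a given number of UMIs of Acly, Acaca, Fasn and Scd1 summed, after thinning to 1000 UMIs per nucleus, for the 4 adipocyte-like clusters in the library labelled KO (left) and the library labelled Flox (right). The curve of the Slc7a10/Trhde cluster reaches 50% near its median of 5 UMIs in KO and 10 UMIs in Flox, and the other clusters have a median of 1. Most of these UMIs in the Slc7a10/Trhde cluster are of Acaca.

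Among Acly, Acaca, Fasn and Scd1, nuclei of the cluster that had more of 1 gene tended to have more of another, weakly. Over the thinned nuclei of KO, Pearson's r of Fasn was 0.273 with Scd1, 0.270 with Acly and 0.364 with Acaca, and over those of Flox it was 0.454, 0.447 and 0.330. Over the 6 pairs of these genes the lowest r was 0.139 in KO and 0.153 in Flox. Acacb stood apart in KO, where its r ran from -0.0802 with Fasn to 0.027 with Elovl6, while in Flox it was 0.253 with Fasn and 0.209 with Elovl6. In the other adipocyte-like nuclei no pair of genes exceeded 0.0611 in either library. Sparse counts and shared libraries bound these values, and they are given as descriptions of nuclei.

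In all adipocyte-like nuclei together, no gene of the pathway differed 1.5-fold between the library labelled KO and the library labelled Flox. The log2 ratio of KO over Flox was -0.36 (-0.42 to -0.31) for Acly, -0.04 for Acaca, 0.09 for Acacb, -0.28 (-0.37 to -0.20) for Fasn, -0.28 (-0.42 to -0.14) for Scd1, 0.52 (0.48 to 0.56) for Elovl6 and 0.21 (0.18 to 0.24) for Thrsp. The median of the 7 was -0.04, beside -0.06 over all 12320 genes tested, of which 2.01% were higher and 8.27% lower by that fold. With TMM factors Elovl6, at 0.60, passed that fold. For Acaca, Fasn, Scd1, Elovl6 and Thrsp the pooled ratio joined opposite differences in 2 kinds of nuclei.

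In the Slc7a10/Trhde cluster 6 of the 7 genes were lower in KO, 4 of them by at least 1.5-fold, and the median log2 ratio was -0.66. Over the 6955 genes tested in that cluster 6.02% were that much lower, 4.72% that much higher, and the median was 0.00333. Acly had 383 CPM (349 to 419) in KO and 1185 CPM (1127 to 1245) in Flox, a log2 ratio of -1.63 (-1.78 to -1.48). Fasn had 484 CPM (445 to 524) in KO and 973 CPM (921 to 1028) in Flox, a log2 ratio of -1.01 (-1.15 to -0.87). Both are single comparisons of 1 library with 1 library, with intervals that do not meet. Elovl6 had 234 CPM (208 to 263) in KO and 486 CPM (449 to 525) in Flox, a log2 ratio of -1.05 (-1.26 to -0.85). Acaca had 5296 CPM (5168 to 5426) in KO and 8360 CPM (8205 to 8517) in Flox, a log2 ratio of -0.66 (-0.70 to -0.61). Scd1, at -0.37, and Thrsp, at -0.27, were lower by less than 1.5-fold, and Acacb, at 0.19, was higher.

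Of the 10 genes that led the cluster over the other adipocyte clusters, 7 had a higher level in KO and 3 a lower one, with a median log2 ratio of 0.14. Slc7a10 had 813 CPM in KO and 665 CPM in Flox, Trhde 728 and 672 CPM, and Retn 859 and 661 CPM, while Clmp was lower, at 499.7 and 585 CPM. Beyond 1.5-fold were Ofcc1, higher at 269 and 122 CPM, and Trabd2b, lower at 127 and 261 CPM. The adipocyte hormone gene Adipoq had 623 and 453 CPM. Plin1, the lipid droplet coat protein perilipin, had 1026 and 1290 CPM. Pnpla2, a lipase gene among the adipocyte markers, had 491 and 329 CPM. The 20 adipocyte markers summed to 21200 CPM in KO and 20969 CPM in Flox, so the summed marker level differed little. Single markers differed in both directions, with Adipoq and Pnpla2 higher in KO and Plin1 lower. The leading genes were picked from both libraries together, so whether the cluster holds the same kind of nuclei in both was not tested. The median depth of the cluster was 3401 UMIs in KO and 2699 in Flox. Skeletal muscle markers summed to 60.0 and 186 CPM and macrophage/monocyte markers to 657 and 581 CPM in the cluster, and their part in the result was not tested.

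In the other adipocyte-like nuclei 6 of the 7 genes were higher in KO. The median log2 ratio of the 7 was 0.28, beside -0.06 over all 12193 genes tested there. Of the 7 genes 1 was higher by at least 1.5-fold and none lower by that fold, beside 2.30% of all genes higher and 8.15% lower. That gene was Elovl6, with 473 CPM (465 to 481) in KO and 315 CPM (308 to 321) in Flox, a log2 ratio of 0.59 (0.55 to 0.63). Fasn had 45.4 CPM in KO and 33.1 CPM in Flox, a log2 ratio of 0.45 (0.33 to 0.58), and Acaca 981 and 837 CPM, a log2 ratio of 0.23 (0.20 to 0.25). Thrsp was at 0.28, Scd1 at 0.28 and Acacb at 0.09, and Acly alone was lower, at -0.10. By cluster, the Elovl6 ratio was 0.72 in the Kcnd2/Erbb4 cluster and 0.74 in the Aspg/Ybx2 cluster, but 0.14 in the Gbp cluster, where KO had 416 CPM and Flox 377. Acaca was nearest to 1.5-fold in the Aspg/Ybx2 cluster, with 1093 CPM in KO and 761 CPM in Flox, a log2 ratio of 0.52. In the Kcnd2/Erbb4 cluster and in the Aspg/Ybx2 cluster Elovl6 was the only gene of the 7 that was 1.5-fold apart, beside 3.38% and 3.95% of all genes higher and 7.66% and 5.09% lower, and in the Gbp cluster no gene was, beside 4.49% and 8.84%. The median over the 7 genes was 0.17, 0.27 and 0.18 in these clusters in turn, beside -0.04, -0.02 and -0.07 over all genes tested.

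**Figure D4:**
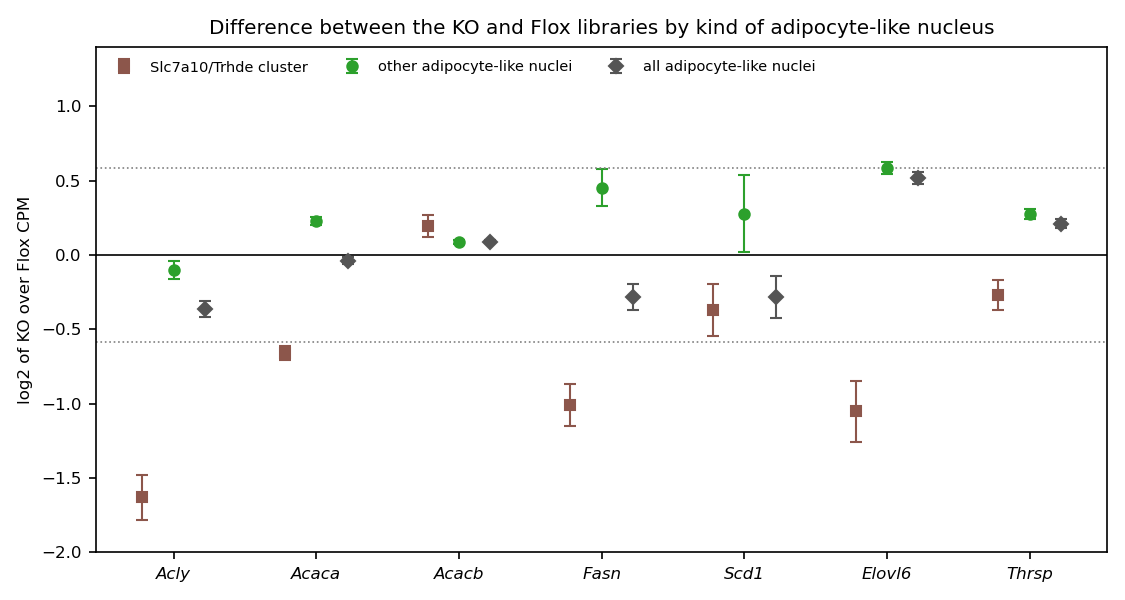
Log2 ratio of the library labelled KO over the library labelled Flox for 7 genes in the Slc7a10/Trhde cluster, in the other adipocyte-like nuclei and in all adipocyte-like nuclei, with exact 95% counting intervals and dotted lines at 1.5-fold. Acly, Acaca, Fasn and Elovl6 lie below the lower line in the cluster, at -1.63, -0.66, -1.01 and -1.05, and Elovl6 lies at 0.59 outside it.

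Several genes that feed the pathway were high in the same cluster. Of 15 genes that supply citrate, acetyl-CoA and NADPH, 6 were at least 1.5-fold higher in the Slc7a10/Trhde cluster than in the other adipocyte-like nuclei in both libraries, beside 9.82% of all genes: Me1, the cytosolic malic enzyme that makes NADPH (ratios of 20.98 in KO and 25.7 in Flox), Slc25a1, the mitochondrial citrate carrier (6.18 and 11.8), Pcx (2.88 and 3.06), G6pdx (2.29 and 3.41), Pgd (2.54 and 3.57) and Acss2 (1.64 and 3.72). In KO over Flox within the cluster, 4 of the 15 were at least 1.5-fold lower and none higher, beside 6.02% and 4.72% of all genes, with Me1 at 508 CPM in KO and 1440 CPM in Flox, a log2 ratio of -1.50 (-1.64 to -1.37). Acss2, which makes acetyl-CoA from acetate, was at -1.06, Pgd at -0.62 and Slc25a1 at -0.59. Me1 differed outside the cluster too: in the other adipocyte-like nuclei it had 24.2 CPM in KO and 56.1 CPM in Flox, a log2 ratio of -1.21 (-1.35 to -1.08). Me1 was the only one of the 15 at least 1.5-fold apart in all adipocyte-like nuclei, at -1.45. Outside adipocyte-like nuclei Me1 was lower in KO as well. The log2 ratio was -1.60 (-2.52 to -0.82) in endothelial-like nuclei, on 16 UMIs in KO and 65 in Flox. It was -0.56 (-1.01 to -0.14) in fibroblast/progenitor-like nuclei and -0.27 (-1.12 to 0.44) in skeletal muscle-like nuclei, where the interval includes no difference. The other classes had too few Me1 UMIs for a ratio. The part of stray adipocyte RNA in these levels was not tested.

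Of 18 lipogenic transcription factors and their partners, 5 were at least 1.5-fold higher in the cluster in both libraries (Srebf1, Insig1, Mlx, Nr1h3 and Rxra) and Ppargc1b was lower, beside 9.82% and 13.3% of all genes. Srebf1 had 306 and 136 CPM in KO, a ratio of 2.26, and 286 and 103 CPM in Flox, a ratio of 2.77. Between the libraries Srebf1 was at 0.10 (-0.11 to 0.31) in the cluster, and of the 4 adipocyte-like clusters its KO over Flox ratio was highest in the Gbp cluster, with 144 CPM in KO and 62.7 CPM in Flox, a log2 ratio of 1.20. Insig1, a sterol-regulated brake on SREBP processing, was at -1.60 in the cluster, with 38.9 CPM in KO and 119 CPM in Flox, and Srebf2 at -0.65, the 2 of the 17 genes measured there that were lower by 1.5-fold, beside 6.02% of all genes. Mlxipl had 1275 CPM in KO and 1220 CPM in Flox over all adipocyte-like nuclei, a log2 ratio of 0.06, and -0.31 in the cluster. None of the 18 was 1.5-fold apart in all adipocyte-like nuclei.

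Of 15 genes that act on acetyl-CoA carboxylase or signal to lipogenesis, 4 were higher in the cluster in both libraries (Hlcs, Irs1, Mid1ip1 and Prkaa1) and 3 lower (Dio2, Mlycd and Mtor), beside 9.82% and 13.3% of all genes, so the count of lower genes was near that share. Dio2 rests on 0 UMIs in KO and 1 in Flox in the cluster, with intervals of the ratio that include 1 in both. Mid1ip1, a relative of Thrsp that promotes carboxylase assembly, had ratios of 3.37 and 4.16, and Mlycd, which breaks malonyl-CoA down, 0.599 and 0.528. Irs1, the insulin receptor substrate, was the only one of 12 measured genes lower in KO by 1.5-fold within the cluster, near the 6.02% of all genes, with 559 CPM in KO and 1095 CPM in Flox, a log2 ratio of -0.97. Of 17 other elongases, desaturases and enzymes of the elongation cycle, 10 were measured in the cluster contrast. Of these, 3 (Elovl5, Fads3 and Hacd2) were higher in the cluster in both libraries and 0 lower, beside 9.82% and 13.3% of all genes. Fads3 was at 29.5-fold in KO and 61.1-fold in Flox. Within the cluster 2 of 9 measured were at least 1.5-fold lower in KO and 0 higher, beside 6.02% and 4.72% of all genes. These were Elovl5, at -0.60, and Scd2, at -1.77 with 13 UMIs in KO and 49 in Flox. In all adipocyte-like nuclei Hacd4 (3.15 CPM in KO and 7.69 in Flox) and Scd2 (1.51 and 3.18 CPM) were the 2 of 12 measured that were at least 1.5-fold lower, beside 8.27% of all genes. Of 7 measured genes of the separate mitochondrial pathway none was higher and 2 (Cbr4 and Mecr) were lower in the cluster in both libraries, beside 9.82% and 13.3% of all genes. None of 8 was 1.5-fold apart between the libraries in all adipocyte-like nuclei, beside 2.01% of all genes higher and 8.27% lower.

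Outside adipocyte-like nuclei all 7 measured genes were lower in KO in endothelial-like nuclei. Their median log2 ratio was -0.34 there, beside -0.04 over all 8762 genes tested. Of the 7 measured genes 3 were at least 1.5-fold lower in KO and none higher, beside 8.91% of all genes lower and 2.74% higher. Scd1 had 9.80 CPM (19 UMIs) in KO and 23.6 CPM (60 UMIs) in Flox, a log2 ratio of -1.24 (-2.09 to -0.50). Fasn had 16.5 CPM (32 UMIs) in KO and 38.1 CPM (97 UMIs) in Flox, a log2 ratio of -1.19 (-1.83 to -0.62). These counts are small, and in KO both levels lay nearer the median of the adipocyte markers. Scd1 was at 38.0% and 75.3% and Fasn at 25.8% and 49.1% of the adipocyte-like level, with the marker median at 18.4% and 26.3%. Elovl6 had 50.01 and 75.4 CPM, below the marker median in both libraries. With doublets kept none of the 3 genes stayed 1.5-fold apart: the log2 ratio was -0.49 for Fasn, -0.10 for Scd1 and 0.083 for Elovl6, and Acaca was at 0.026. In fibroblast/progenitor-like nuclei none of 7 genes was 1.5-fold apart, beside 2.99% of 9918 genes higher and 3.83% lower. Of 4 genes measured in pericyte/smooth muscle-like nuclei the single call was Acacb, at -1.10 (6.94% of genes lower, 5.36% higher). Of 5 measured in macrophage/monocyte-like nuclei it was Thrsp, at -0.68 (6.35% lower, 3.98% higher). Elovl6 pointed the other way there, at 0.58 (0.12 to 1.05), just short of a call, and ranged from 0.58 to 0.65 under 6 alternatives. Of 5 measured in T/NK-like nuclei the single call was Thrsp, at 1.27 (9.13% lower, 9.67% higher). In skeletal muscle-like nuclei, of which KO had 73 and Flox 298, Acly, Acaca and Thrsp were at least 1.5-fold lower and Elovl6 higher (14.1% of genes lower and 7.59% higher). Acly there rests on 6 UMIs in KO and 44 in Flox, with an interval of -2.39 to 0.36, and the interval of Elovl6, -0.12 to 1.72, also includes no difference. None of these calls held with doublets kept: Acacb was at -0.18 in pericyte/smooth muscle-like nuclei, and Thrsp at -0.095 in macrophage/monocyte-like, 0.085 in T/NK-like and -0.34 in skeletal muscle-like nuclei. In skeletal muscle-like nuclei Acly was then at -0.23, Acaca at -0.43 and Elovl6 at 0.36, and at clustering resolution 0.3 Thrsp was at -0.16. Acacb in pericyte/smooth muscle-like nuclei, at 6.22% of its adipocyte-like level in KO and 14.2% in Flox, was below the marker median of 14.1% and 20.7%.

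The genes whose levels followed each member most closely were read over the 22 pairs of a cluster and a library with at least 50 nuclei, by Pearson's r of log2(CPM + 1) among genes with at least 500 UMIs. The points share libraries and depth and mix adipocyte-like with other clusters, so the values are descriptions. They include the Flox nuclei of a cluster led by haemoglobin genes, where most Scd1 UMIs came from a single nucleus, which limits the Scd1 values. Acaca was followed by Gpam (0.968) and Gpat3 (0.948), acyltransferases that start glycerolipid synthesis, and then B3galt2 (0.943). Fasn was followed by Retn (0.930), Cfd (adipsin, 0.921) and Pank3 (0.912), and Scd1 by Fasn itself (0.834), Ofcc1 (0.832) and Retn (0.807). Acly stood nearest to Hp (haptoglobin, 0.912), Acaca (0.909) and Ces1f (0.904). Acacb was nearest to Ddo (0.979), Inca1 (0.975) and Crat (carnitine acetyltransferase, 0.974). Elovl6 was nearest to Nrg4 (0.957), a factor known to be released by brown fat, Pde3b (0.956) and Dgat2 (0.944), and Thrsp to Adig (0.941), Heph (0.935) and Cidec (0.933). Between members, r of Acacb was 0.904 with Elovl6, 0.775 with Thrsp and 0.700 with Acaca. With Scd1 it was 0.150 for Acacb and 0.137 for Elovl6. Elovl3, with 37 UMIs in all kept nuclei, was not compared.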

How the data were processed

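The authors deposited UMI counts of genes by barcodes. The file headers name Cell Ranger 5.0.0, and the submitters' processing notes name the build mm10. Libraries were 10x 3' droplet libraries of nuclei per the labels' protocols. The annotation, the use of intron reads and the calling of nuclei were not given in the sources used here. Totals were 43080725 UMIs over 13030 barcodes (KO) and 46528077 over 16145 (Flox).

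The 8 genes, the gene lists and the marker lists were chosen with earlier results of these data known. Barcodes with under 200 genes or over 10% mitochondrial UMIs (129 in KO, 99 in Flox) and the highest Scrublet scores, at 0.8% per 1000 barcodes (1345 and 2073), were removed. Both libraries were clustered together in scanpy 1.11.5 without batch correction (2000 variable genes of which the 3 members Fasn, Acaca and Scd1 were taken out, 30 principal components, 15 neighbours, leidenalg 0.10.2 at resolution 0.5). Clusters were named from 16 marker lists. UMIs were summed per class and library. Log2 ratios had 0.5 UMI added and needed 50 UMIs over both libraries. Intervals were exact Poisson for levels, exact binomial for ratios and Clopper-Pearson for shares, at 95%. A difference was counted at 1.5-fold, with no test between genotypes. The counting was also run on simulated Poisson counts. These follow the model that the intervals assume and hold no spread between nuclei, so they do not check the intervals on real nuclei. Genes named were the 8 members, Nfe2l1, Me1, Srebf1, Mlxipl, listed genes at least 1.5-fold apart and the 3 most alike genes per member. Genes named for a cluster contrast, and Slc7a10, Trhde, Retn, Ucp1, Cidea, Adipoq, Plin1 and Pnpla2 in the cluster, were chosen after values were seen. Positions came from GENCODE vM21. edgeR 4.0.16 gave TMM factors. Other tools were scipy 1.17.1, pandas 2.3.3 and matplotlib 3.10.9 under Python 3.11.15.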

Additional observations from a re-analysis of the deposited data

Results flagged for a closer look

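The difference between the library labelled KO and the library labelled Flox pointed in opposite ways in 2 kinds of nuclei for 8 pairs of a gene and a class, with counting intervals on opposite sides of no difference and a gap of at least 1.5-fold. The difference of the differences was not tested, since each genotype had 1 library. Between the Slc7a10/Trhde cluster and the other adipocyte-like nuclei, the log2 ratio of KO over Flox was -1.05 and 0.59 for Elovl6 (a gap of -1.64), -1.01 and 0.45 for Fasn (-1.46), -0.66 and 0.23 for Acaca (-0.89) and -0.37 and 0.28 for Scd1 (-0.65).

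Against adipocyte-like nuclei as a whole, Thrsp was at -1.18 in skeletal muscle-like nuclei and 0.21 in adipocyte-like nuclei (-1.39), and at -0.68 in macrophage/monocyte-like nuclei (-0.89). Acacb was at -1.10 in pericyte/smooth muscle-like nuclei and 0.09 in adipocyte-like nuclei (-1.19). Elovl6 was at -0.59 in endothelial-like nuclei and 0.52 in adipocyte-like nuclei (-1.11). The Thrsp value in skeletal muscle-like nuclei rests on 12 UMIs in KO and 113 in Flox. With doublets kept Thrsp was at -0.34 in skeletal muscle-like and -0.095 in macrophage/monocyte-like nuclei, Acacb at -0.18 in pericyte/smooth muscle-like nuclei and Elovl6 at 0.083 in endothelial-like nuclei, all short of 1.5-fold. Acacb in pericyte/smooth muscle-like nuclei and Elovl6 in endothelial-like nuclei lay below the median adipocyte marker. The part of stray adipocyte RNA in these levels was not tested.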

How the results depend on the processing

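In all adipocyte-like nuclei, Acly, Acacb, Fasn, Scd1, Elovl6 and Thrsp kept their direction under all 11 alternatives, and Acaca under 9. The median log2 ratio of -0.04 became 0.044 with TMM factors, 0.025 with median-of-ratios size factors and -0.16 with no minimum of UMIs, which lets Elovl3 in. With TMM factors 1 gene, Elovl6, was at least 1.5-fold higher (log2 ratio 0.60), and with no minimum 1, Elovl3, at least 1.5-fold lower. For the Slc7a10/Trhde cluster, the alternatives were chosen after seeing the data. All 7 genes kept their direction under 13 alternatives, 4 were at least 1.5-fold lower in each and none higher, and Acly ranged from -1.74 to -1.53. The median of -0.66 became -0.79 with the mean CPM over nuclei, -0.77 after thinning, -0.59 with stricter filters (500 genes, 5% mitochondrial UMIs), -0.60 at resolution 0.3, -0.59 at 1.0 and -0.59 with the members among the variable genes. Nuclei picked by at least 2 or 3 UMIs of Slc7a10 and Trhde, with no clustering, gave medians of -0.64 and -0.65. The 5 genes higher in the cluster in both libraries were 5 under each of 7 alternatives, but the log2 ratio of Scd1 in Flox ranged from 4.82, among nuclei with at least 3 UMIs of Slc7a10 and Trhde, to 5.76 over these, beside 5.91. Elovl6 in endothelial-like nuclei became 0.083 with doublets kept, where it was -0.59. No paired analysis was possible because each genotype had 1 library, and no replicate could be left out. Depth limits Elovl3, Scd1 and Fasn most.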

Other observations

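A small cluster of 48 KO and 127 Flox nuclei, led by haemoglobin genes and left unnamed, also held the adipocyte RNA of this pathway, with Acacb at 2923 CPM in KO and 2657 CPM in Flox. Its Scd1 level was 6.19 CPM (1 UMI) in KO and 295 CPM (119 UMIs) in Flox, and 89 of the 119 UMIs came from 1 nucleus. Fasn had 10 UMIs there in KO and 76 in Flox, 22 of these in 1 nucleus, so both Flox levels rest in part on single nuclei.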
